A study of Mus musculus with 8 samples.

Results

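Amino acid breakdown enzymes were followed in liver RNA of db/db mice given control or AF1 peptide. The set was a list of 41 genes for the breakdown of tyrosine and phenylalanine, tryptophan, histidine, serine, threonine and glycine, lysine, branched-chain amino acids, proline and cysteine, with the aspartate and alanine transaminases. Members were taken by gene symbol from the table of normalized read counts. The list was chosen with earlier results of these data known. Of the 41 listed genes, 40 were among the 21532 genes of the table, and all 40 were among the 15989 genes tested. The remaining gene, Tdh, was not analysed here.

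The 8 mice were db/db males on a C57BL/6J background. Such mice carry a mutated leptin receptor gene in every tissue and become obese and diabetic on chow. From 8 weeks of age, 4 mice received AF1 peptide and 4 received control, each at 5 mg/kg body weight by retro-orbital injection 2 times per week for 5 weeks. AF1 peptide is a synthetic peptide derived from the estrogen receptor ERα, with a TAT sequence that carries it into cells. Each library came from the frozen liver of 1 mouse, and no lean or untreated mice were sequenced in the samples used here. The feeding state at liver collection is not given in the sources used here. The comparison asked how 5 weeks of AF1 peptide altered liver gene expression in these mice.

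The liver is the main site of amino acid breakdown, and hepatocytes carry nearly all of its enzymes. Each route has a committed step near its start, such as tyrosine aminotransferase for tyrosine or the branched-chain ketoacid dehydrogenase for leucine, isoleucine and valine, and ends in carbon for glucose, ketone bodies or the citric acid cycle. Many of the opening enzymes are known to rise in fasting under glucagon and glucocorticoids and to fall with insulin and feeding. The nitrogen goes to urea.

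Libraries held 23031880 to 45117528 reads, with a two-sided p of 0.686 between the groups (exact permutation test). Mitochondrial genes took 22.4 to 34.3% of reads in control mice, 34.3 to 37.8% in AF1 peptide replicates 2 to 4 and 20.8% in AF1 peptide replicate 1 (exact permutation test, two-sided p = 0.4). The smallest p that 4 against 4 mice allow is 0.0286. AF1 peptide replicate 1 stood apart from the other 7 livers in the genes described here, so the main results are given with and without this mouse. A gene was called when its unadjusted p in limma was under 0.05, on the log2(normalized count + 1) scale, which is the scale of every log2 fold change below, and SE is the standard error of a fold change. p values adjusted by the Benjamini-Hochberg method over all tested genes stand beside it.

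None of the 40 enzymes passed the test between control and AF1 peptide-treated livers. With all 8 mice, 0 members were called higher and 0 lower, where 3.16% of all tested genes were called higher and 3.03% lower. The groups overlapped for all 40 members, while 3.9% of all tested genes had groups that did not overlap. The log2 fold change was above 0 for 30 members and below 0 for 10, with a median of 0.17, beside a median of -0.01 over all tested genes. The smallest adjusted p among the members was 0.763 (limma), which was also the smallest over all genes.

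The positive median rested on 1 mouse. Without AF1 peptide replicate 1, 14 members had a log2 fold change above 0 and 26 below 0, and the median was -0.07, beside -0.0036 over all tested genes. In these 7 mice 0 members were called higher and 2, Tat and Got1, were called lower, where 4.58% of all tested genes were called higher and 5.48% lower. The members' share called lower, 2 of 40, was close to that of all genes. Their smallest adjusted p was 0.476 (limma). The groups of 7 mice did not overlap for 1 member, Pccb, a subunit of propionyl-CoA carboxylase, with 2164 to 2423 normalized counts in control mice and 2012 to 2158 in AF1 peptide replicates 2 to 4. Of all tested genes, 9.16% had groups that did not overlap in the 7 mice.

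**Figure D1:**
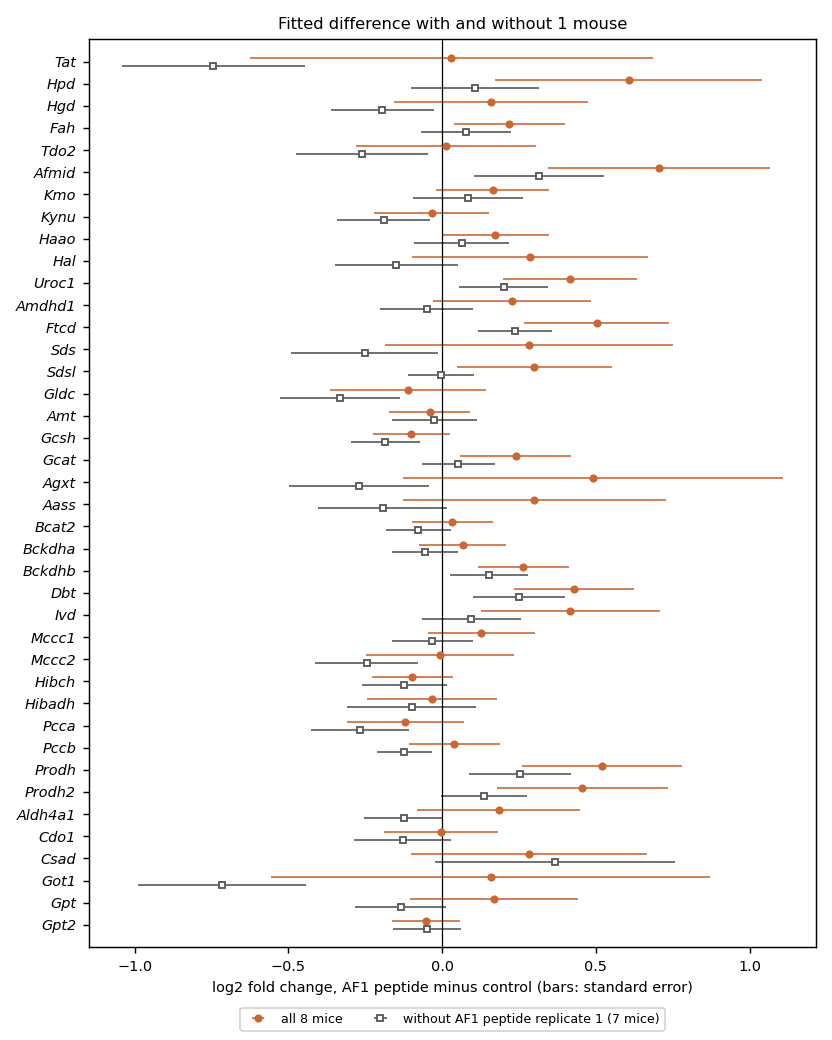
Log2 fold change of each member, AF1 peptide minus control, with its standard error from limma, for all 8 mice (filled circles) and for the 7 mice without AF1 peptide replicate 1 (open squares). With all 8 mice 30 of 40 values lie above 0, and without this mouse 14 do. The bars of Got1, Tat and Agxt are the longest with 8 mice.

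With all mice, each of the count models edgeR and DESeq2 called a larger share of the 40 members higher than of all genes. Neither did so once AF1 peptide replicate 1 was left out. Whether these shares differed by more than chance was not tested. On the recovered reads edgeR called 4 members higher, Ftcd, Dbt, Prodh and Afmid, where it called 3.48% of all genes higher. DESeq2 called 4 members higher, Ftcd, Dbt, Prodh and Uroc1, where it called 3.52% of all genes higher. In limma these 5 genes had p from 0.0527 (Dbt) to 0.085 (Uroc1). The smallest adjusted p among them was 0.675 in DESeq2 and 0.751 in edgeR. With all mice DESeq2 gave no p for Agxt and Got1, so neither could be called, at log2 fold changes of 1.19 and 1.01. Without AF1 peptide replicate 1, edgeR called 0 members higher, where it called 4.86% of all genes higher, and DESeq2 called 1, Ftcd, where it called 4.25%.

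In AF1 peptide replicate 1 the enzymes were high as a group. This mouse had the highest value of the 8 in 34 of 40 members, where it was highest in 25.9% of all tested genes. It was lowest in 0 members, where it was lowest in 23.4% of all tested genes. It lay more than 1.5-fold above every other mouse in 20 members, against 3.37% of all tested genes. It lay more than 2-fold above the control mean in 18, a count made for the members only. Csad, Amt, Gpt2 and Hibch were the 4 whose normalized count was below the control mean in this mouse. The 40 members took 2.0% of its reads, while they took 0.72 to 0.928% in control mice and 0.655 to 0.768% in AF1 peptide replicates 2 to 4.

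The mean share was 0.811% ± 0.092 (SD, n = 4) in control mice and 1.03% ± 0.65 (SD, n = 4) in those given AF1 peptide. Without replicate 1 it was 0.711% ± 0.057 (SD, n = 3). With mitochondrial genes left out of the total, AF1 peptide replicate 1 had 2.54% and the other 7 mice 1.0 to 1.31%.

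The other livers also differed in the level of the whole set, over a narrower range. The median member of control replicate 1 lay 0.22 above the control mean on the log2 scale, and that of AF1 peptide replicate 3 lay 0.32 below it. The medians of the remaining 5 mice lay between -0.07 and 0.10. Control replicate 1 was the highest control in 32 of 40 members, where it was so in 23.2% of all tested genes. AF1 peptide replicate 3 was the lowest of the 8 mice in 25 members, where it was lowest in 17.9% of all tested genes.

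**Figure D2:**
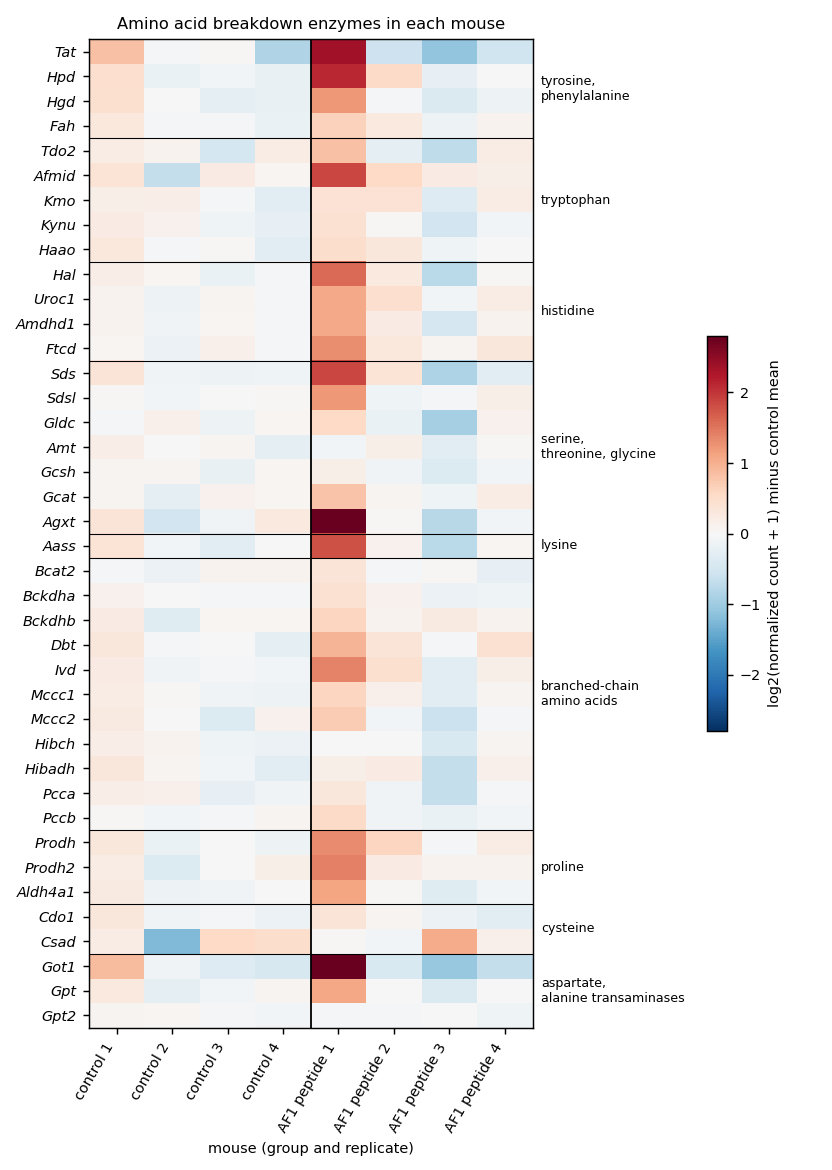
Each of the 40 members (rows, grouped by the amino acid it breaks down) in each of the 8 mice (columns), as log2(normalized count + 1) minus the mean of the 4 control mice. Red is above and blue below the control mean. AF1 peptide replicate 1 is red in 37 rows, AF1 peptide replicate 3 is below the control mean in 33 rows, and control replicate 1 is above it in 38.

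Members differed widely in how far they ranged. The ratio of the highest to the lowest mouse had a median of 2.51 over the members, from 1.14 in Gpt2 to 14.3 in Got1. Among the 5921 tested genes with a mean at least that of the lowest member, the median ratio was 1.45. Without AF1 peptide replicate 1 it was 1.62 for the members and 1.36 for those genes. Got1, Agxt, Tat, Sds and Afmid had the largest ratios with all 8 mice.

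The promoters of the 3 members with the widest range and of the member with the narrowest range are shown, to set the sequence at the start of the genes beside their values. Each runs from 250 bases before to 50 bases after the transcription start, 5′ to 3′ on the gene's strand, from RefSeq on GRCm38.p6. Of the 40 members, 34 had a promoter among those searched, which did not cover every chromosome. Got1 lies at chr19:43524556-43524855 on the minus strand, Agxt at chr1:93134990-93135289, Tat at chr8:109990186-109990485 and Gpt2 at chr8:85492326-85492625, the last 3 on the plus strand. Capitals in the Agxt promoter mark the letters TGTTCT, a glucocorticoid receptor half-site.
Got1: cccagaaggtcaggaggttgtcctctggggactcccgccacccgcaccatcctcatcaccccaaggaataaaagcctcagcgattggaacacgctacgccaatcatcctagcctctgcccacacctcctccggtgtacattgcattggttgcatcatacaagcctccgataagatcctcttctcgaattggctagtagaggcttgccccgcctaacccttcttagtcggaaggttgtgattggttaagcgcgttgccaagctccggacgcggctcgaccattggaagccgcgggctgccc
Agxt: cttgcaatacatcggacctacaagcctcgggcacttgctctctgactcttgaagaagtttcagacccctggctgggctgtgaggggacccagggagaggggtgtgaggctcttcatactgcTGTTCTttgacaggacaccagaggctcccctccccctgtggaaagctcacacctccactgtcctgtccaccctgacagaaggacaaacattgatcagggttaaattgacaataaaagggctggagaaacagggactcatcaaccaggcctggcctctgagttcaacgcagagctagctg
Tat: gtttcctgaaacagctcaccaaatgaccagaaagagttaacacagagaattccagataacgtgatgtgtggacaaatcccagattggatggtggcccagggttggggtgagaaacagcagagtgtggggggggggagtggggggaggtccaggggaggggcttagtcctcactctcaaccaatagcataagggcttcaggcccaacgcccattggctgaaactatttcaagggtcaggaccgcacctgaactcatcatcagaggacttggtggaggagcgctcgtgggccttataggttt
Gpt2: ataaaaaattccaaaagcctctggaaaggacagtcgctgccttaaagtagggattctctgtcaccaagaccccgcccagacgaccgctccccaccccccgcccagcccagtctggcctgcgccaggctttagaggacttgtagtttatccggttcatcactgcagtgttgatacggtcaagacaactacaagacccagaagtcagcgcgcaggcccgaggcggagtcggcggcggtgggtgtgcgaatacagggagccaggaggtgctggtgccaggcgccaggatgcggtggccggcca

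Short motifs, 4 in all, were searched on both strands of these windows, each counted on its own, and neighbouring matches may share bases. A member counted when any of its promoters matched, while the share of all promoters counted every promoter separately. The shares set side by side are therefore of unlike units. Among the members, 5 of 34 (14.7%) held TGACG, the half-site of the cAMP response element, as did 20.8% of all 32851 promoters searched. The glucocorticoid half-site TGTTCT was in 6 members (17.6%), Agxt, Bckdhb, Gcat, Haao, Kmo and Pccb, and in 19.0% of all promoters. The C/EBP letters TTGCNNAA were in 4 members (11.8%), Aass, Hal, Hgd and Prodh2, and in 10.8% of all promoters. The forkhead letters GTAAACA were in 1 member, Hibadh (2.94%), and in 3.65% of all promoters. The windows of Got1, Tat and Gpt2 held none of the 4.

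All 4 tyrosine enzymes were highest in AF1 peptide replicate 1. Tat, tyrosine aminotransferase, takes the amino group off tyrosine and is the classic glucocorticoid-induced liver enzyme. It had 23826, 13258, 13828 and 7551 normalized counts in control replicates 1 to 4, and 68707, 8952, 6311 and 9220 in AF1 peptide replicates 1 to 4. AF1 peptide replicate 1 was 2.88-fold above the next mouse, and the other 3 AF1 peptide-treated mice lay near or below control replicate 4, the lowest control. For Tat the log2 fold change was 0.030 (SE 0.66, adjusted p = 0.995, limma). Without that mouse it was -0.74 (SE 0.30, adjusted p = 0.485, limma), with groups that still overlapped.

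Hpd, the dioxygenase that follows Tat, had 34917, 22343, 24082 and 22044 normalized counts in control mice. The AF1 peptide replicates 1 to 4 had 109126, 37030, 21688 and 25369. The highest values after replicate 1 were AF1 peptide replicate 2 and control replicate 1, and the groups overlapped. Its log2 fold change was 0.61 (SE 0.43, adjusted p = 0.792, limma) and 0.11 (SE 0.21, adjusted p = 0.884) without that mouse. Hgd, which opens the aromatic ring, and Fah, which makes the last cut to fumarate and acetoacetate, had log2 fold changes of 0.16 and 0.22, and of -0.20 and 0.077 without that mouse. In AF1 peptide replicate 1 the level over the control mean was 4.7-fold for Tat, 4.22-fold for Hpd, 2.29-fold for Hgd and 1.55-fold for Fah, in the order of the pathway.

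In the tryptophan route, Tdo2, the dioxygenase that opens the indole ring, had 4374, 4050, 2699 and 4396 normalized counts in control mice. It had 6755, 3152, 2319 and 4401 in AF1 peptide replicates 1 to 4. Replicate 3 of each group was the lowest of its group. The log2 fold change was 0.012 (SE 0.29, adjusted p = 0.995, limma), and -0.26 (SE 0.21, adjusted p = 0.692) without AF1 peptide replicate 1.

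Afmid, the formamidase of the next step, had 4054, 1944, 3622 and 3198 normalized counts in control mice and 11377, 4537, 3640 and 3440 in AF1 peptide-treated mice. All 4 AF1 peptide-treated mice lay above the 2 lowest controls. Between the groups the log2 fold change of Afmid was 0.71 (SE 0.36, adjusted p = 0.763, limma), and 0.31 (SE 0.21, adjusted p = 0.63) without AF1 peptide replicate 1. In the GENCODE M21 transcripts 40.3% of the 50-base words of Afmid also occur in Gm20708, a gene model that overlaps it, so its counts are uncertain. Kmo, Kynu and Haao, the later steps toward quinolinate, had 1.31- to 1.4-fold the control mean in AF1 peptide replicate 1 and log2 fold changes from -0.03 to 0.17. Without that mouse these were 0.085 for Kmo, -0.19 for Kynu and 0.064 for Haao.

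All 4 histidine enzymes were highest in AF1 peptide replicate 1. Hal, histidine ammonia-lyase, had 4374, 3996, 3360 and 3670 normalized counts in control mice and 11546, 4599, 2277 and 3932 in AF1 peptide-treated mice. Replicates 1 and 3 of the AF1 peptide group were the highest and the lowest of the 8 mice. For Hal the log2 fold change was 0.29 (SE 0.38, adjusted p = 0.885, limma), and -0.15 (SE 0.20, adjusted p = 0.822) without AF1 peptide replicate 1.

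Uroc1, Amdhd1 and Ftcd take urocanate on to glutamate and one-carbon units. They were 2.09-, 2.08- and 2.45-fold the control mean in AF1 peptide replicate 1. Their log2 fold changes were 0.42, 0.23 and 0.50 with all mice and 0.20, -0.05 and 0.24 without that mouse. Ftcd had 13408 to 16612 normalized counts in control mice and 15909 to 18772 in AF1 peptide replicates 2 to 4 (adjusted p = 0.763, limma).

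Among the serine, threonine and glycine enzymes, Agxt and Sds ranged furthest over the 8 mice and Amt and Gcsh least. Sds, serine dehydratase, makes pyruvate from serine and is a gluconeogenic enzyme of periportal hepatocytes. Control mice had 14380, 10506, 10176 and 10272 normalized counts of it, and AF1 peptide-treated mice had 41260, 14694, 6193 and 9171. Both the highest and the lowest mice were AF1 peptide-treated. Its log2 fold change was 0.28 (SE 0.47, adjusted p = 0.911, limma), and -0.25 (SE 0.24, adjusted p = 0.735) without replicate 1.

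Agxt, the alanine-glyoxylate aminotransferase that keeps glyoxylate from becoming oxalate, had 3810, 2043, 2746 and 3551 normalized counts in control mice. It had 20190, 3017, 1729 and 2807 in AF1 peptide-treated mice. In AF1 peptide replicate 1 it was 5.3-fold above the next mouse, and the other 3 lay within or just below the control range. The log2 fold change was 0.49 (SE 0.62, adjusted p = 0.873, limma), and -0.27 (SE 0.23, adjusted p = 0.697) without that mouse.

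Gldc, the glycine-decarboxylating subunit of the cleavage system, had 2202, 2484, 2039 and 2332 normalized counts in control mice and 3314, 1978, 1190 and 2447 in AF1 peptide-treated mice. Only replicates 1 and 3 of the AF1 peptide group lay well outside the control range, on opposite sides. Between the groups the log2 fold change of Gldc was -0.11 (SE 0.25, adjusted p = 0.936, limma), and -0.33 (SE 0.20, adjusted p = 0.583) without replicate 1. Its partners Amt and Gcsh were 0.937- and 1.11-fold the control mean in AF1 peptide replicate 1. Sdsl, a relative of Sds, and Gcat, of threonine breakdown, were 2.32- and 1.73-fold. Gcat shares 10.8% of its 50-base words with Galr3 in GENCODE M21.

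The lysine route was represented by Aass, the enzyme that joins lysine to 2-oxoglutarate and splits the product. It had 3388, 2461, 2068 and 2565 normalized counts in control mice and 8869, 2784, 1532 and 2685 in AF1 peptide-treated mice. Again the highest and the lowest of the 8 mice were AF1 peptide replicates 1 and 3. For Aass the log2 fold change was 0.30 (SE 0.43, adjusted p = 0.893, limma), and -0.19 (SE 0.21, adjusted p = 0.771) without replicate 1.

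The 11 branched-chain enzymes were nearer to their control level in AF1 peptide replicate 1 than most routes, apart from Ivd and Dbt. Bckdha, a subunit of the branched-chain ketoacid dehydrogenase, had 9029, 8154, 7902 and 8026 normalized counts in control mice. It had 11191, 8957, 7331 and 7650 in AF1 peptide-treated mice. Only AF1 peptide replicate 1 lay above all controls. Its log2 fold change was 0.067 (SE 0.14, adjusted p = 0.933, limma), and -0.06 (SE 0.11, adjusted p = 0.882) without that mouse.

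The other subunits, Bckdhb and Dbt, had log2 fold changes of 0.26 and 0.43, and of 0.15 and 0.25 without that mouse. Dbt, the transacylase core, had 668 to 1005 normalized counts in control mice and 792 to 1083 in AF1 peptide replicates 2 to 4, with 1572 in replicate 1 (adjusted p = 0.763, limma). Ivd, which oxidizes isovaleryl-CoA from leucine, was 2.6-fold the control mean in AF1 peptide replicate 1, the most of this route, and its log2 fold change of 0.42 became 0.095 without that mouse. Bcat2, Hibch, Hibadh, Mccc1, Mccc2, Pcca and Pccb were 0.983- to 1.61-fold the control mean there, and their log2 fold changes were between -0.12 and 0.13. In the 7 mice all of these 7 were below 0, from -0.27 in Pcca to -0.032 in Mccc1. The summed normalized count of the 11 genes was 1.46-fold the control mean in that mouse, against 3.3-fold for the 4 tyrosine and phenylalanine genes and 3.35-fold for the 7 serine, threonine and glycine genes.

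Prodh, proline dehydrogenase, opens proline breakdown in the mitochondria. It had 7968, 5632, 6467 and 5818 normalized counts in control mice and 16001, 9797, 6136 and 7405 in AF1 peptide-treated mice. The 2 highest livers were AF1 peptide replicates 1 and 2, while replicates 3 and 4 lay within the control range. The log2 fold change was 0.52 (SE 0.26, adjusted p = 0.763, limma), and 0.25 (SE 0.17, adjusted p = 0.623) without replicate 1. Prodh2, for hydroxyproline, and Aldh4a1, which completes the route to glutamate, were 2.63- and 2.14-fold the control mean in AF1 peptide replicate 1. Aldh4a1 shares 30% of its 50-base words with Gm21969, so its counts are uncertain.

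For cysteine, Cdo1, the dioxygenase that commits cysteine to oxidation, ranged 1.6-fold over the 8 mice. Control mice had 39600, 29694, 30615 and 28286 normalized counts, and AF1 peptide-treated mice had 41084, 33709, 28383 and 25632. The range of the AF1 peptide-treated mice enclosed that of the controls. Between the groups the log2 fold change of Cdo1 was -0.0038 (SE 0.18, adjusted p = 0.997, limma), and -0.13 (SE 0.16, adjusted p = 0.803) without replicate 1.

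Csad, the decarboxylase that leads on to taurine, did not follow the other members from mouse to mouse. It ranged from 744 in control replicate 2 to 3644 in AF1 peptide replicate 3, the mouse in which most members were lowest. In AF1 peptide replicate 1 it was 0.915-fold the control mean. Its log2 fold change was 0.28 (SE 0.38), and 0.37 without that mouse.

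The transaminases held both ends of the range. Got1, the cytosolic aspartate aminotransferase of the malate-aspartate shuttle and of gluconeogenesis, had 5937, 2980, 2507 and 2358 normalized counts in control mice. It had 21908, 2378, 1533 and 2025 in AF1 peptide-treated mice. Apart from replicate 1, replicate 2 lay just above the lowest control, and replicates 3 and 4 lay below it. For Got1 the log2 fold change was 0.16 (SE 0.71, adjusted p = 0.975, limma). Without replicate 1 it was -0.72 (SE 0.27, adjusted p = 0.476, limma).

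Gpt, the alanine aminotransferase 1 gene, had 8415, 5759, 6671 and 7396 normalized counts in control mice and 14765, 7054, 5250 and 6972 in AF1 peptide-treated mice. Replicate 1 alone lay above the control range. Its log2 fold change was 0.17 (SE 0.27, adjusted p = 0.908, limma), and -0.14 (SE 0.15, adjusted p = 0.775) without it. Gpt2, which makes the mitochondrial alanine aminotransferase, had 17739 to 19719 in control mice and 17245 to 19028 in AF1 peptide-treated mice. Its log2 fold change was -0.05 (SE 0.11), and AF1 peptide replicate 1 was 0.96-fold the control mean.

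**Figure D3:**
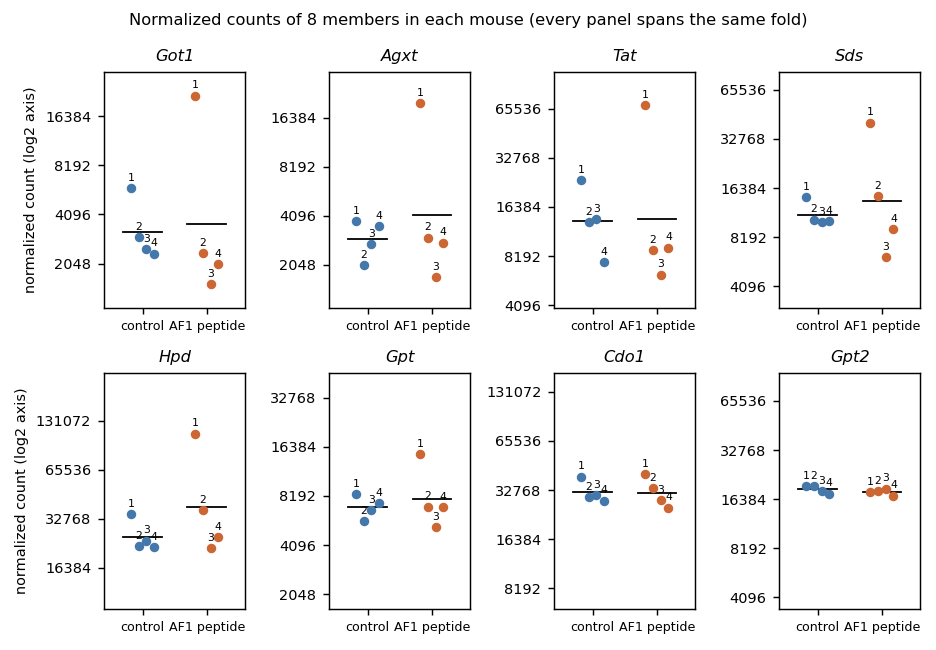
Normalized counts (log2 axis, every panel spanning the same fold) of the 4 members with the widest range (Got1, Agxt, Tat, Sds), of 3 further opening steps or transaminases (Hpd, Gpt, Cdo1) and of the member with the narrowest range (Gpt2). Each point is 1 mouse, numbered by replicate, and the line is the mean on the log2 scale. AF1 peptide replicate 1 is the highest point in 7 panels, and in Gpt2 the 8 mice span 1.14-fold.

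Levels between genes were compared per kilobase of exon, with lengths from GENCODE M21. In control livers Cdo1 had the highest level, 19490 normalized counts per kilobase, followed by Hpd (12150), Fah (8710), Sds (6690) and Tat (6077). Fah, Sds and Tat had means closer together than the spread of Tat. The lowest were Mccc1 (119), Hibch (182), Dbt (244), Pcca (256.0) and Sdsl (256.3). Agxt had 1790 and Got1 1357 per kilobase.

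**Figure D4:**
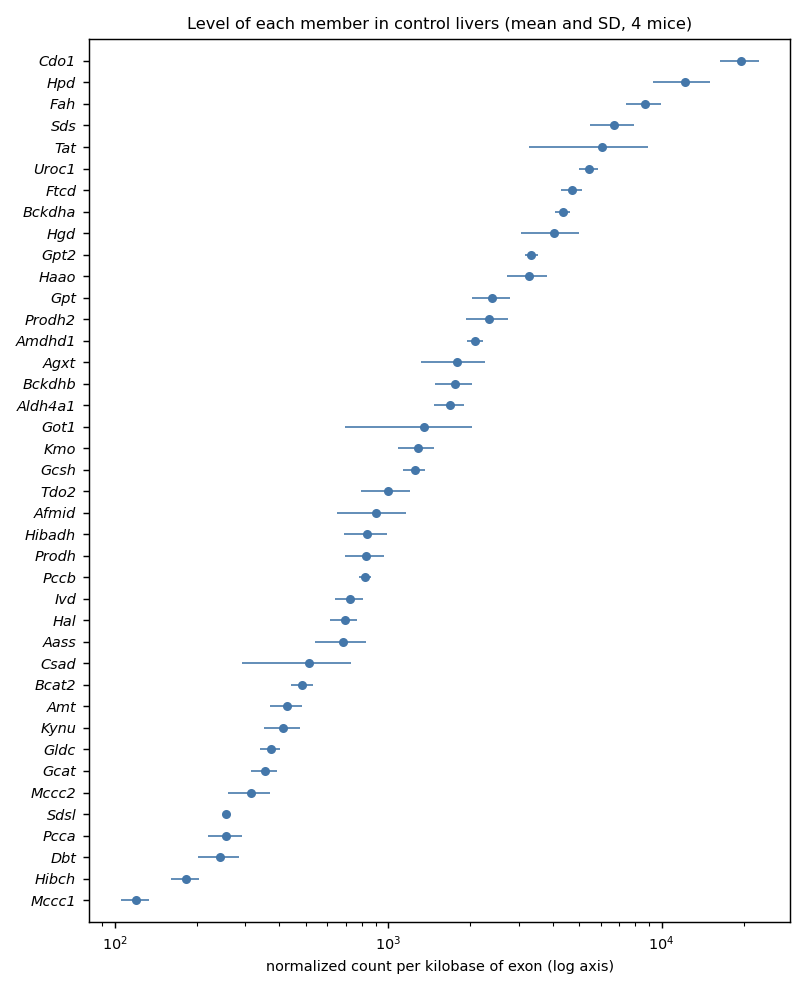
Level of each member in control livers as normalized counts per kilobase of exon (log axis), mean and SD of 4 mice. Cdo1 is the highest at 19490 and Mccc1 the lowest at 119. The bars of Tat, Got1 and Csad are among the longest.

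Other genes of these routes were read from a fixed list. Of 49 further genes, 47 were in the table. None was called higher with all 8 mice, where 3.16% of all tested genes were. AF1 peptide replicate 1 was the highest mouse in 33 of the 47, where it was highest in 25.9% of all tested genes. Without this mouse Aspg, an asparaginase gene, was called higher, and the genes called lower included Qdpr, Qprt, Dld, Echs1 and Suox. Of all tested genes, 4.58% were called higher and 5.48% lower without this mouse.

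Of 14 regulators of these enzymes, Foxo1 and Crtc2 were called higher and none lower. Of all tested genes 3.16% were called higher and 3.03% lower, and 3.9% had groups that did not overlap. Foxo1, the forkhead factor that insulin keeps out of the nucleus, had 525, 502, 485 and 509 normalized counts in control mice. It had 932, 658, 660 and 608 in AF1 peptide-treated mice, so that the groups did not overlap. The log2 fold change was 0.48 (SE 0.13, adjusted p = 0.763, limma), and 0.34 (SE 0.094, adjusted p = 0.452, limma) without replicate 1.

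Crtc2, the CREB coactivator of the fasting response, had 1331, 1075, 1327 and 1187 normalized counts in control mice and 2338, 1534, 1443 and 1389 in AF1 peptide-treated mice. These groups did not overlap either. Between the groups the log2 fold change of Crtc2 was 0.42 (SE 0.16, adjusted p = 0.763, limma), and 0.25 (SE 0.10, adjusted p = 0.485) without replicate 1. The call of Crtc2 was lost without control replicate 2 (0.36) or 4 (0.40). When the libraries were scaled to equal totals, neither gene was called, with log2 fold changes of 0.39 for Foxo1 and 0.33 for Crtc2.

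Of 11 genes of gluconeogenesis and the fasting response, 1, Pcx, was called lower, where 3.03% of all tested genes were. Pcx, pyruvate carboxylase, turns the pyruvate made from alanine and serine into oxaloacetate. It had 13220, 14148, 12289 and 13360 normalized counts in control mice and 10606, 11722, 10005 and 11157 in AF1 peptide-treated mice. These groups were also apart, as were those of 3.9% of all tested genes. For Pcx the log2 fold change was -0.29 (SE 0.11, adjusted p = 0.763, limma) with all mice and -0.28 (adjusted p = 0.483, limma) without replicate 1. Its call was lost without control replicate 2 (-0.25) or AF1 peptide replicate 3 (-0.25). In the 7 mice G6pc and Fbp1 of gluconeogenesis and the regulator Cebpb were called lower too, where 5.48% of all tested genes were. With all 8 mice no gene of these lists had an adjusted p under 0.763 (limma).

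**Figure D5:**
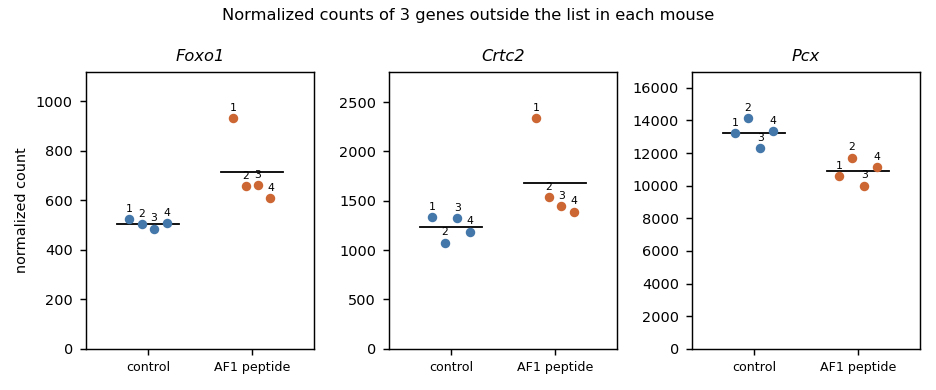
Normalized counts (linear axis from 0) of 3 genes outside the list that were called in the lists of regulators and gluconeogenesis. Each point is 1 mouse, numbered by replicate, and the line is the group mean. In all 3 panels the groups do not overlap, and AF1 peptide replicate 1 is the highest mouse in Foxo1 and Crtc2.

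The tissue was liver by its markers, with all 10 hepatocyte markers in the table. In bulk RNA, fewer cells of a type and less RNA per cell cannot be told apart. The summed count of the 8 macrophage markers was 2545 in this mouse, 5536 to 6968 in control mice and 6288 to 6639 in AF1 peptide replicates 2 to 4, and this mouse was lowest in 7 of the 8. Sums relative to the control mean were 0.762 for hepatocyte, 1.33 for pericentral, 0.943 for sinusoidal endothelial, 0.632 for stellate, 0.566 for biliary and 0.454 for red blood cell markers. Control replicate 4 had the most red blood cell counts, 123402, and without it the last ratio was 0.704. Most of the biliary count was Spp1, with 667 of 815 in AF1 peptide replicate 1, 0.528-fold the control mean. The other biliary markers had low counts and lay between 0.682-fold (Krt7) and 1.56-fold (Cldn7), and this mouse was lowest in 1 of the 6. The 9 pericentral markers summed to 198298 in AF1 peptide replicate 1 and to 104620 to 190816 in control mice. AF1 peptide replicate 1 was the highest mouse in 3 of these 9 and the lowest in 3. Alb, the albumin gene, made up much of the hepatocyte sum, at 0.648-fold the control mean, and the other 9 hepatocyte markers together were 0.919-fold. The 9 periportal markers, Alb among them, were 0.802-fold, while the 8 others were 2.69-fold, and 2.6-fold without the members Sds and Hal. These 8 summed to 417043 in this mouse, 131540 to 188912 in control mice and 95860 to 182825 in AF1 peptide replicates 2 to 4, and this mouse was highest in 6 of them. Ass1, a urea cycle gene, made up 188675 of the sum in this mouse, 3.1-fold the control mean. Cyp2f2 and Cdh1, in which it was not the highest, were 0.857- and 1.0-fold. Leaving out Alb and control replicate 4 here was chosen after their values were seen.

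Of 6 adipose markers 3 were in the table, and nearly all of their count was Cidec, a lipid droplet gene that fatty hepatocytes also express. Cidec had 243 normalized counts in AF1 peptide replicate 1 and 3542 to 4768 in the other 7 mice. Exocrine pancreas had 1 of 8 markers in the table and skeletal muscle 3 of 6, the latter with summed counts of 3 to 14 in every mouse. The part of these markers and of the mitochondrial share in the enzyme levels of AF1 peptide replicate 1 was not tested.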

How the data were processed

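Frozen liver was used, with TRIzol extraction and Illumina Stranded mRNA libraries, 1 per mouse. The authors trimmed reads with Trim Galore 0.6.7, aligned them with HISAT2, sorted them with SAMtools 1.17 (the submitters' processing notes give the build mm39) and counted them with GenomicAlignments. They deposited normalized read counts, a signal per gene and mouse equal to the reads over a size factor for that library. Which annotation was used, whether strand was used and how reads matching several genes were handled are not given in the sources used here. Overlapping genes, such as Hpd with Psmd9 and Prodh with Dgcr6, may therefore share reads.

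Whole reads were recovered from the steps of each library, and 100% of 172256 values were whole within 0.01. The filter kept genes whose mean over the 8 mice was 10 or more. These were tested with limma 3.58.1 (R 4.3.3) on log2(normalized count + 1) with an intensity trend, where p under 0.05 was the study's own threshold. On simulated data with 2-fold changes the test was checked and called most of the changed genes. The simulation drew each gene on its own and held no mouse that shifted in many genes together, so it does not cover that case. Replicates differed by more than sampling noise, so no library was a duplicate, and no column was left out. Groups came from the labels. The members, the gene lists and the tests were chosen with earlier results of these data known. Genes were given in full if they were called, had groups that did not overlap, open a route (Tat, Hpd, Tdo2, Hal, Sds, Gldc, Aass, Bckdha, Prodh, Cdo1, Gpt, Got1) or were among the 5 with the largest ratio of the highest to the lowest mouse. Genes outside the list were named only where called, or where a tissue check turned on them, and 1 of them is not reported here.

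Alternatives were pseudocounts of 0.5 and 5, no filter, at least 10 in every mouse, TMM factors, equal totals with and without mitochondrial genes, no trend, each gene's own variance, a block for the replicate number, edgeR 4.0.16, DESeq2 1.42.0, a fold threshold of 1.3, and each mouse left out. The last was combined with edgeR, DESeq2, TMM factors and equal totals for AF1 peptide replicate 1 after seeing the data. Promoters were RefSeq sequences on GRCm38.p6 and exon lengths were from GENCODE M21, matched by symbol. Since the reads were aligned to another build, no coordinate was mixed with the counts.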

Additional observations from a re-analysis of the deposited data

Results flagged for a closer look

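In each group of 4 mice, the highest or lowest mouse was compared with the rest by its gap to the nearest mouse over the range of the group on the log2 scale (Dixon's test). Of 90 groups, 12 passed the 95% critical value for 4 mice, which about 1 in 20 groups pass by chance. In 5 of the 12, AF1 peptide replicate 1 was the mouse that stood out, each time as the highest. These were the share of reads from the 40 members (0.916, on the percent scale), Prodh2 (0.891), Pccb (0.857), Tat (0.841) and Got1 (0.835). AF1 peptide replicate 3 was lowest in Hibadh (0.898).

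The other 6 lay among the control mice. Control replicate 1 was highest in Sds (0.908) and Ivd (0.895). Control replicate 2 was lowest in Sdsl (0.944) and Gcat (0.836). Control replicate 3 was lowest in Gcsh (0.898) and Tdo2 (0.832).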

How the results depend on the processing

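The count of members called lower was 0 under all alternatives that kept the 8 mice. The count called higher, 0 in the analysis as reported, was 1 with no filter on low values (Dbt), 2 with equal totals without mitochondrial genes (Ftcd and Dbt), 4 in edgeR, 4 in DESeq2 and 5 with the replicate block (Afmid, Ftcd, Bckdhb, Dbt and Prodh). The cause was not tested. Over all genes those called higher were 506 of 15989 as reported, 647 of 21532 with no filter, 446 with those equal totals, 557 in edgeR, 562 in DESeq2 and 597 with the block. Mice of the same number deviated together weakly (correlations of 0.235, 0.0238, 0.216 and -0.064), 4 of 8 mice correlated best with their own number, and the numbers stand for different mice, so they were not taken as pairs. Equal totals gave a median log2 fold change of -0.10 over all genes and 0.079 over the members, and turned the log2 fold changes of Bckdha (-0.024), Tat (-0.062) and Tdo2 (-0.079). Cdo1 was 0.0050 in edgeR and 0.0082 in DESeq2. Of all genes tested in the 8 mice, none passed an adjusted p of 0.05 in limma or edgeR, and 3 did in DESeq2.

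With 1 mouse left out, 0 to 6 members were called higher (6 without AF1 peptide replicate 3: Kmo, Uroc1, Ftcd, Dbt, Ivd and Prodh, where 440 of 15989 genes were) and 0 to 9 lower. The 9 came with equal totals without AF1 peptide replicate 1, where 2142 of 15989 genes were called lower and the median of all genes was -0.16. Tat and Got1 were the 2 called lower without that mouse in limma, edgeR, DESeq2 and with TMM factors. The members' median ranged from -0.22 to 0.34. The log2 fold changes of the genes that turned ranged from -0.35 to 0.65 for Aass, -0.43 to 0.91 for Agxt, -0.21 to 0.15 for Bckdha, -0.28 to 0.10 for Cdo1, -0.49 to 0.16 for Gldc, -0.87 to 0.56 for Got1, -0.29 to 0.36 for Gpt, -0.30 to 0.63 for Hal, -0.048 to 0.88 for Hpd, -0.41 to 0.66 for Sds, -0.90 to 0.40 for Tat and -0.41 to 0.25 for Tdo2. Afmid, Prodh, Foxo1, Crtc2 and Pcx kept their direction. Equal totals without AF1 peptide replicate 1 ended the calls of Foxo1 (0.19) and Crtc2 (0.092), and each gene's own variance that of Crtc2 (0.42). The difference in the members' share of reads was 0.222 percentage points, and -0.10 without AF1 peptide replicate 1. With 4 mice per group, the spread between mice limits what these values show. The part of depth was not tested.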
